A study of Mus musculus with 2 samples.

Results

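The 46 genes described here make the proteins that copy DNA at the replication fork and the nucleotides that the copying consumes. They were taken from a list of gene symbols, each symbol matched 1 identifier, and together they are 46 of the 55536 annotated genes of the deposited tables. No measured value enters the rule that lists them, but the list was chosen with earlier results of these data known. The measurements are total RNA sequencing of cells labelled as neutrophils from mouse spleen, in 2 libraries, replicate 1 and replicate 2, which the labels give as biological replicates of a single group. B6CASTF1/J hybrid mice, with C57BL/6 as the mother's strain and CAST/EiJ as the father's, gave the cells. They were male, adult, virgin and 59 days old, and no treatment is labelled. The input was 300 ng of RNA per library, to which ERCC controls, synthetic RNAs of known amount, were added. Both libraries carry the same donor label and separate biosample labels. Separate animals are not stated, and the spread of the 2 may therefore be technical. There is no second condition, and what follows describes levels, the make-up of the transcripts and the difference between the libraries.

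A cell that divides copies its genome once. Before S phase the origin recognition complex, with Cdc6 and Cdt1, loads rings of Mcm2 to Mcm7 onto DNA. At the start of S phase Cdc45 and the GINS proteins join each ring to form the active helicase, called CMG. Primase and polymerase alpha then lay primers, the RFC complex loads the sliding clamp PCNA, polymerases delta and epsilon extend, and Fen1 and DNA ligase 1 seal the lagging strand. Neutrophils arise from dividing promyelocytes and myelocytes and stop dividing as they mature, so in this lineage these genes are known as genes of the precursors.

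Replicate 1 held 18836093 estimated reads and replicate 2 held 18444369. The 46 genes took 37610 and 45406 of them. Those reads are 0.200% of replicate 1 (exact Clopper-Pearson 95% interval 0.198 to 0.202%) and 0.246% of replicate 2 (0.244 to 0.248%), intervals that cover counting error only. Single genes held from 91 to 2454 reads in replicate 1 and from 133 to 3061 in replicate 2. Neutrophil granule genes were high in both libraries, with the 6 secondary granule markers (Ltf, Camp, Ngp, Lcn2, Cd177 and Chil3) between 516 and 6696 TPM. TPM is a transcript level scaled by transcript length and to a fixed total per library, so it can be compared between genes.

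Promoter sequences are shown first, because a family of transcription factors, E2F, is known to switch many replication genes on at the entry to S phase. RefSeq (GRCm38.p6) windows of 300 bases, from 250 before to 50 after the start of transcription, were held for 38 of the 46 genes, in 44 windows. Gmnn, Gins1, Gins2, Gins4, Mcm4, Pole, Prim2 and Rfc2 were not in that table. The E2F motif was searched on both strands as TTTCCCGC, TTTGGCGC, TTTCGCGC or TTTGCCGC, where matches on opposite strands can overlap. It was present in 14 of the 38 genes (36.8%), against 704 of 27025 genes of the table (2.61%) and 412 of 8137 protein-coding genes that had 1 TPM or more in each library (5.06%). CCAAT, on both strands, was found for 24 of 38 genes (63.2%), against 41.1% of all genes and 43.6% of the expressed ones. The cell cycle homology motif, TTTGAA or TTCGAA on both strands, was found for 7 of 38 (18.4%), against 21.7% and 16.9%. A match is a description of these letters and not a bound site.

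The 5 stretches below run from 200 bases before to 30 after the start of transcription, 5′ to 3′ on the strand of the gene, with E2F motif letters in capitals. They are shown because Mcm6 held the most matches, Mcm7 and Mcm5 were the MCM genes with the highest level, Rfc3 held its matches closest to the start, and Orc1 had the largest ratio between the libraries. The letters are those of the reference genome, not of the hybrid mice.
Mcm6 (chr1:128359676-128359905, - strand): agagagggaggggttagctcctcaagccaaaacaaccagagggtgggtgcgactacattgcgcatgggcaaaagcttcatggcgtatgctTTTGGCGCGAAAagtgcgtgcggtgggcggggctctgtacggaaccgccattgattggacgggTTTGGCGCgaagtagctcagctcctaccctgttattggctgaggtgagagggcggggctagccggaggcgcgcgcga
Mcm7 (chr5:138171854-138172083, - strand): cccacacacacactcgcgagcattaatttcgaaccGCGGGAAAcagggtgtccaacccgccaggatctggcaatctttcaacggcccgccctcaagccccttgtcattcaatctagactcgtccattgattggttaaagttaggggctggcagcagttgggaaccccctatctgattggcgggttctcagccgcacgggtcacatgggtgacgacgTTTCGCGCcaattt
Mcm5 (chr8:75109309-75109538, + strand): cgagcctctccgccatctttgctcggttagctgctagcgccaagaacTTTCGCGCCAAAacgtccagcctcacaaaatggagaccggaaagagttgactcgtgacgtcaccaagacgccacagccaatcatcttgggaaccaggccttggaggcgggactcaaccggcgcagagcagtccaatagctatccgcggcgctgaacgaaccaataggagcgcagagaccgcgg
Rfc3 (chr5:151651179-151651408, - strand): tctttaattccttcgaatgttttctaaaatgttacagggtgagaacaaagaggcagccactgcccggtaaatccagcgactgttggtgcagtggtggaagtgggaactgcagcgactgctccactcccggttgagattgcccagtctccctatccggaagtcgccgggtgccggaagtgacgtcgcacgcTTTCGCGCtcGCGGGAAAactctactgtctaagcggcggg
Orc1 (chr4:108579254-108579483, + strand): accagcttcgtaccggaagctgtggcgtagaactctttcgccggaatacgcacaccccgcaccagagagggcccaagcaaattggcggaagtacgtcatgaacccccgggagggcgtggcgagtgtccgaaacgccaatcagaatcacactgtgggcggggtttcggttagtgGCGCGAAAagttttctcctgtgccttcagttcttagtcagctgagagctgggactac
In Mcm6 and in Mcm5 the run of 12 capitals is a pair of overlapping matches on opposite strands. Counting the first transcribed base as 1, the Rfc3 matches began at positions -10 and 1, the Orc1 match at -27, and the Mcm7 matches at -165 and 17.

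Over the 14 genes there were 20 E2F matches, 13 of them from 100 bases before to 50 after the start, with a median position of -18.5. Within the MCM helicase the motif was found for Mcm3, Mcm5, Mcm6 and Mcm7, and not for Mcm2. The other genes with a match were Orc1, Cdc6 and Cdt1 of origin licensing, Gins3, Rfc3, the polymerase genes Pola1, Pold1, Pold3 and Pole2, and Lig1. None of the 5 nucleotide supply genes had these letters in the window. The 14 genes had a median level of 24.5 TPM (2.86 to 70.8), and the 24 genes without a match had 19.0 TPM (5.58 to 119). The ranges of the 2 sets overlapped. The median log2 ratio between the libraries was 0.32 in the first set and 0.31 in the second.

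**Figure D1:**
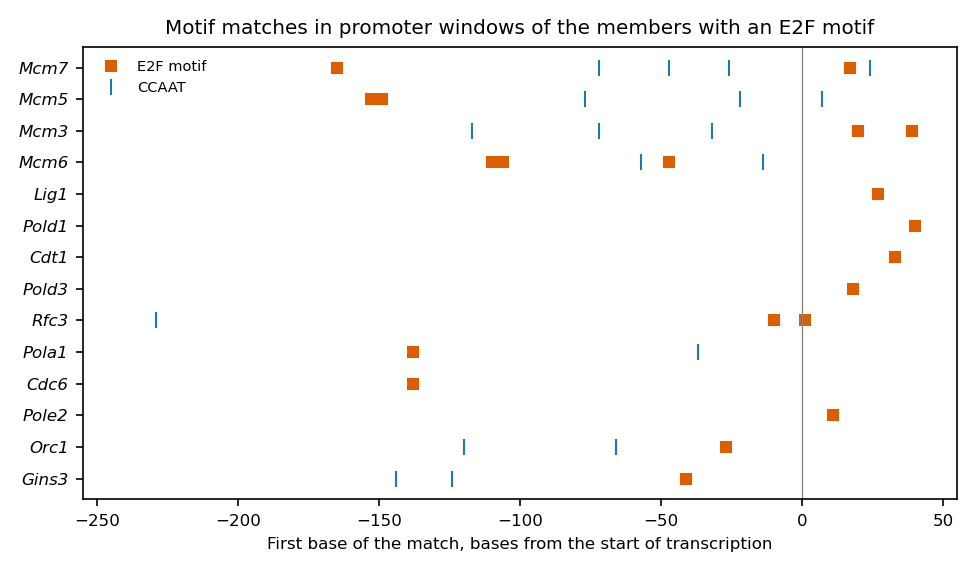
Positions of E2F motif (squares) and CCAAT (ticks) matches in the RefSeq promoter windows of the 14 genes with an E2F match, in bases from the start of transcription (x axis), 1 row a gene. Of 20 E2F matches, 13 lie from 100 bases before to 50 after the start.

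All 46 genes had 1 TPM or more in each library. Their median was 16.7 TPM in replicate 1 and 20.7 in replicate 2. The lowest gene in both was Gins3, at 2.71 and 3.01 TPM, and the highest was Pcna, at 105 and 133 TPM. Among 10211 protein-coding genes that did so too, whose medians were 13.4 and 13.7 TPM, the 46 genes lay between the 11.9 and 94.2 percentiles, and 30 of them lay above the median. In a bulk sample, fewer cells with these RNAs and less RNA per cell cannot be told apart. With 1 group the levels carry no test, and the order of genes whose difference is within the spread of the 2 libraries is not resolved. Orders below are those of the gene table, and the second transcript table turns some of them. In its replicate 1 the lowest of the 46 was Orc1 (3.50 TPM) and not Gins3 (4.21), and the lowest MCM gene was Mcm2 (27.9) and not Mcm4 (30.4).

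**Figure D2:**
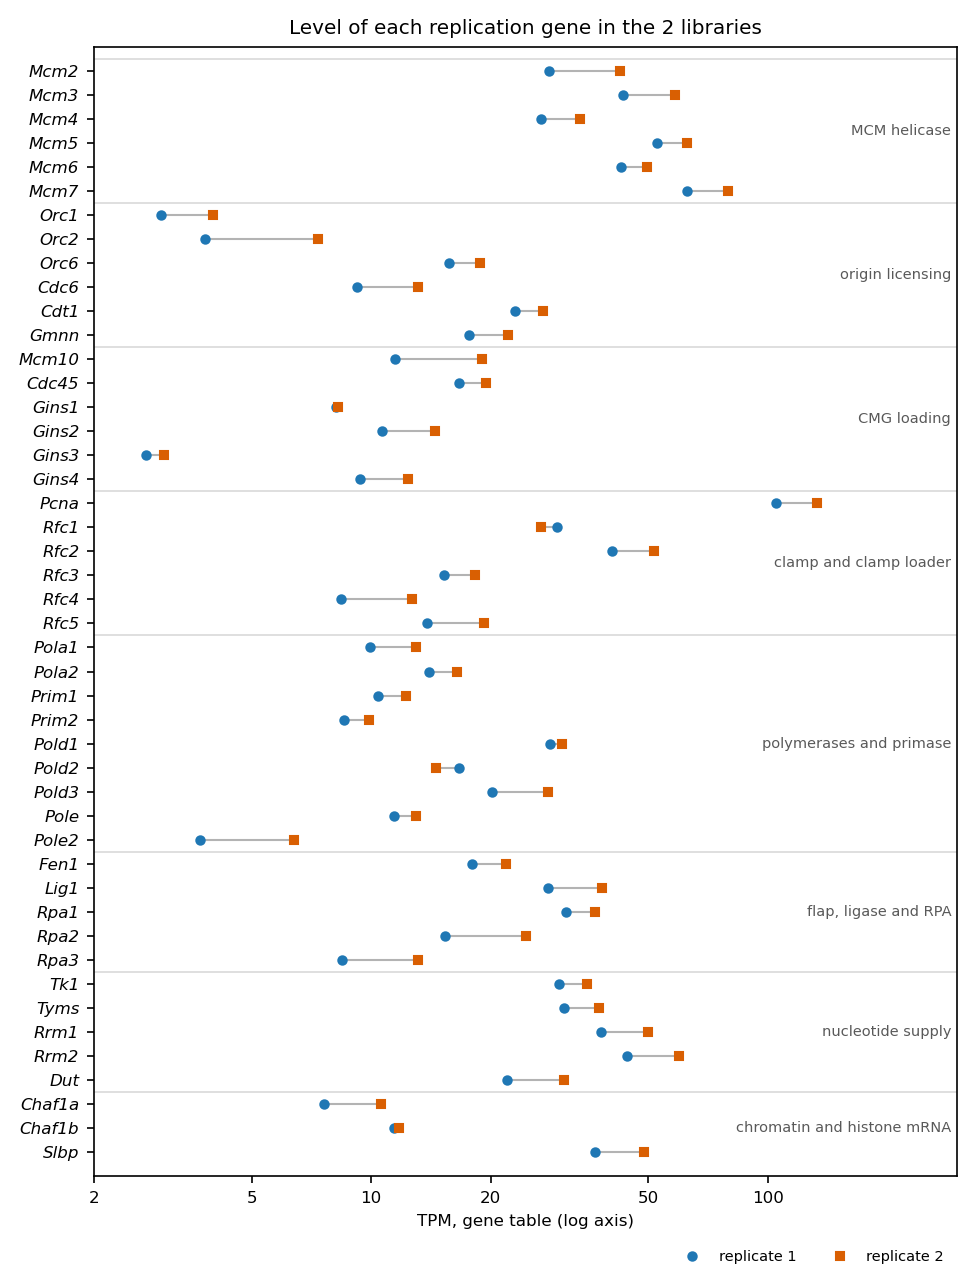
Level of each of the 46 genes in TPM (x axis, log scale), grouped by role, with replicate 1 as circles and replicate 2 as squares joined by a line. Replicate 2 lies to the right for 44 genes, and the exceptions are Rfc1 and Pold2.

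The helicase subunits were close to each other in level. Mcm7 (ENSMUSG00000029730.16, chromosome 5, 138164583 to 138172422 on mm10, minus strand) stood at 62.4 TPM in replicate 1 and 79.2 in replicate 2. Mcm4 was the lowest in both libraries of this table, at 26.8 and 33.7 TPM. The 6 subunits form a ring with 1 copy of each, and their gene totals over all transcripts spanned 2.33-fold in replicate 1 and 2.35-fold in replicate 2. Between these ends lay Mcm5 at 52.5 and 62.5 TPM, Mcm3 at 43.2 and 58.5, Mcm6 at 42.7 and 49.5, and Mcm2 at 28.1 and 42.4. Mcm2 and Mcm4 were the lower pair in both libraries, and the difference between Mcm3 and Mcm6 was within the spread of each between the libraries. By the coding transcripts of the first transcript table Mcm5 (44.03 TPM) lay above Mcm7 (40.65) in replicate 1. In replicate 2 Mcm5 stood at 55.96 and Mcm7 at 56.06 TPM. Mcm2 (23.65 and 33.17) then lay below Mcm4 (26.77 and 33.66). The microRNA genes Mir25, Mir93 and Mir106b lie within Mcm7 on the same strand, so reads of their precursor and of Mcm7 cannot be separated by strand.

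The genes that load the helicase were lower and less even. Cdt1, which brings the MCM ring to the origin, was the highest in the gene table, at 23.0 and 27.1 TPM. Gmnn, which makes geminin, the inhibitor of Cdt1, stood at 17.6 and 22.1 TPM in the gene table. The second transcript table put Gmnn over 1.5-fold higher in both libraries, at 28.2 and 33.8 TPM. By TPM it was the only one of the 46 genes to differ so between the tables. In the second table Gmnn lay above Cdt1, at 26.9 and 29.5 TPM, in both libraries. Orc1, the subunit of the origin recognition complex whose protein is known to be cell cycle regulated, was the lowest, at 2.95 and 4.00 TPM (ENSMUSG00000028587.18, chromosome 4, 108579423 to 108614833, plus strand). Orc2 was at 3.82 and 7.34 TPM, Orc6 at 15.7 and 18.8, and Cdc6, the loader ATPase, at 9.20 and 13.1. The group thus spanned 7.80-fold and 6.78-fold, more than the helicase it loads.

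The factors that turn the loaded ring into the CMG helicase had the lowest TPM median of the 8 groups in replicate 1, at 9.995, and stood at 13.5 in replicate 2. The polymerases had 11.4 and 12.95. The chromatin and histone mRNA group had 11.39 and 11.77, the lowest median of the 8 in replicate 2. Within the CMG group Cdc45, a part of the active helicase, was the highest, at 16.6 and 19.5 TPM. The GINS genes, which make a complex of 4 different subunits, were uneven, with Gins3 at 2.71 and 3.01 TPM, Gins1 at 8.17 and 8.26, Gins4 at 9.35 and 12.4, and Gins2 at 10.6 and 14.5. Gins3 was the lowest subunit in both libraries, while the Gins2 value rests mostly on transcripts that do not code for protein, as described with the transcripts. Mcm10, an activator of CMG, was at 11.5 and 19.1 TPM.

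Pcna, the gene of the sliding clamp (ENSMUSG00000027342.14, chromosome 2, 132249162 to 132253314, minus strand), had the highest level of all, 119 ± 19.8 TPM (SD, n = 2). Its loader genes were lower. Rfc2 was at 40.4 and 51.8 TPM, Rfc1, the large subunit, at 29.4 and 26.9, Rfc3 at 15.3 and 18.3, Rfc5 at 13.8 and 19.2, and Rfc4 at 8.40 and 12.7. Rfc4 was the lowest loader subunit in both libraries of the gene table, while in replicate 2 of the second table Rfc3 (12.7 TPM) lay below it (13.2). In the gene table Rfc1 was 1 of the pair of genes with a lower TPM in replicate 2, while in the second table it was higher (23.6 and 24.5).

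Among the polymerase genes the catalytic subunit of polymerase delta, Pold1, was the highest, at 28.2 and 30.3 TPM, and Pole2, a subunit of polymerase epsilon, the lowest, at 3.71 and 6.38. The polymerase delta subunits Pold3 (20.2 and 27.9 TPM) and Pold2 (16.7 and 14.6) followed, and in replicate 2 Pola2 lay above Pold2. Pole, the catalytic subunit of the leading strand polymerase, stood at 11.4 and 12.9 TPM. Polymerase alpha and primase act as 1 complex, and its 4 genes lay close together: Pola2 at 14.0 and 16.5 TPM, Prim1 at 10.4 and 12.2, Pola1 at 9.91 and 12.95, and Prim2 at 8.54 and 9.89. By the coding transcripts of the first transcript table Pola2 stood at 6.88 and 8.93 TPM, the lowest of the 4 in replicate 1.

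Rpa1, the large subunit of the protein that coats single-stranded DNA, was at 30.9 and 36.7 TPM, above Rpa2 (15.4 and 24.6) and Rpa3 (8.42 and 13.1). Lig1, the ligase that joins Okazaki fragments, was at 27.99 and 38.2 TPM, and Fen1, the flap nuclease, at 17.9 and 21.9. The 3 RPA subunits act as 1 complex, and their transcripts kept the same order in both libraries.

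By gene totals the nucleotide supply genes were closer still, and spanned 2.01-fold in replicate 1 and 1.94-fold in replicate 2. Rrm2, the small subunit of ribonucleotide reductase, was the highest, at 44.2 and 59.6 TPM, with its partner Rrm1 at 37.9 and 49.9. Tyms, thymidylate synthase, was at 30.6 and 37.6 TPM, and Tk1, the thymidine kinase of S phase, at 29.7 and 34.98. Dut, which removes dUTP, was the lowest at 22.03 and 30.7 TPM. By the coding transcripts of the first transcript table Tyms (10.05 and 12.08 TPM) lay below Dut (20.96 and 29.96), and the group was less even. In the last group, Slbp, which binds the stem-loop of replication-dependent histone mRNAs, was at 36.6 and 48.9 TPM. The chromatin assembly factor genes Chaf1a and Chaf1b, which place histones behind the fork, were lower, at 7.59 and 10.6 and at 11.4 and 11.8 TPM.

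A gene's TPM adds up all its annotated transcripts, and for a few of these genes most of it came from transcripts that the annotation does not class as protein-coding. The 46 genes had 264 annotated transcripts, and 45 genes had more than 1. Over those 45 the median share of TPM in protein-coding transcripts was 73.7% in replicate 1 and 75.2% in replicate 2, close to the 76.7% and 77.9% of 9397 protein-coding genes at a TPM of at least 1. In the second transcript table, estimated straight from reads, the medians were 76.2% and 75.5% against 73.2% and 73.6%. The share in transcripts classed as retained intron was higher than over all those genes: medians of 20.02% and 16.2% against 9.17% and 8.76%, with 19.3% and 18.3% against 9.72% and 9.35% by the second estimate. These are descriptions with no test.

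**Figure D3:**
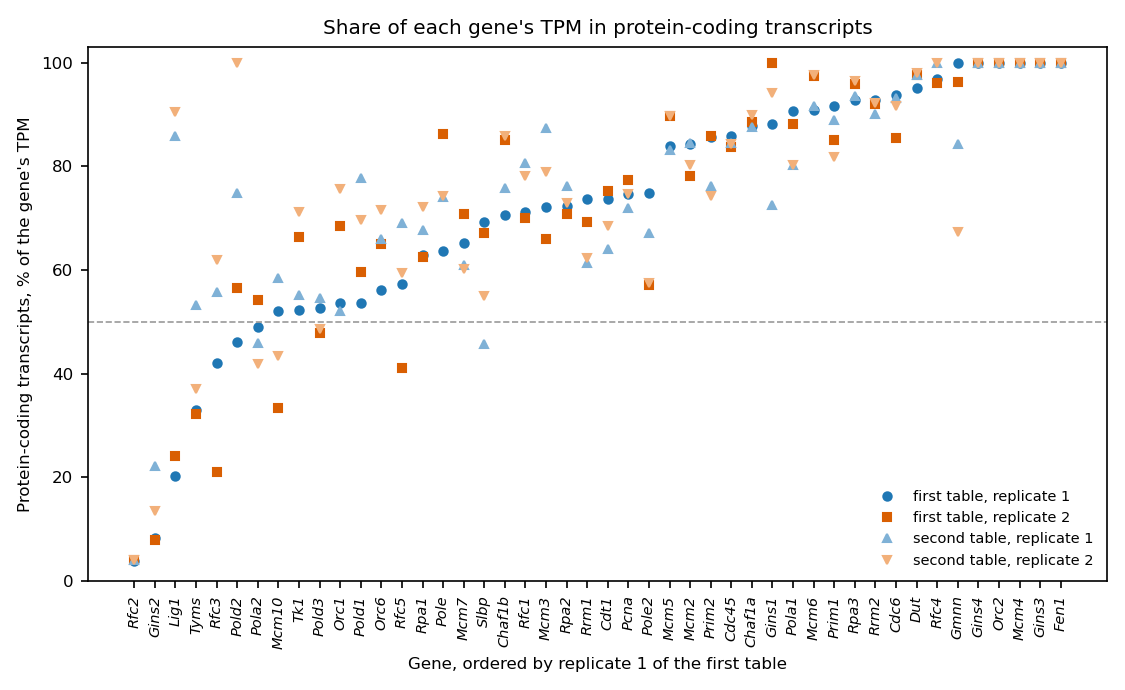
Share of TPM in protein-coding transcripts (y axis, %) for the 45 genes with more than 1 transcript and Gins4, ordered by replicate 1 of the first transcript table, in both libraries and both tables; the dashed line is at 50%. Rfc2 and Gins2 lie under it in all 4 estimates, while Lig1 lies under it in the first table and above it in the second.

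A coding share under 50% in both libraries and both tables was seen for Rfc2 and Gins2, 4.44% of the 45 genes, against 11.5% of the 9397 genes. In the first table alone it was seen for 5 genes (11.1% against 14.6%), and in the second for 3 (6.67% against 17.8%). Besides Rfc2 and Gins2, the gene in the second table was Pola2, at 45.8% and 41.9%, with 49.0% and 54.2% in the first. A low coding share was thus no feature of the 46 genes as a whole, and the genes below are single cases. For Rfc2 (ENSMUSG00000023104.9, chromosome 5, 134581366 to 134601805, plus strand) the coding share was 3.87% and 3.99%, and 3.98% and 4.00% in the second table. Its only protein-coding transcript, Rfc2-201, therefore stood at 1.56 and 2.07 TPM, although the gene as a whole was the second highest of the clamp and loader group. The highest transcript was the retained intron form Rfc2-204, with 41.2% and 50.1% of TPM. That form has 831 bases and Rfc2-201 has 4995, so a read counts for more TPM in it. By reads the coding share of Rfc2 was 20.9% and 21.6%. The annotated gene Lat2 overlaps Rfc2 on the opposite strand.

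For Gins2 (ENSMUSG00000031821.11, chromosome 8, 120578633 to 120589304, minus strand) the coding share was 8.28% and 7.89%, and 22.2% and 13.5% in the second table. Its coding transcript Gins2-201 was at 0.88 and 1.14 TPM. The retained intron form Gins2-204, of 511 bases, held 65.6% and 78.6% of TPM. By reads the coding share was 39.9% and 39.8%. Counted by its coding transcript in the first table, Gins2 lay below every gene total of the 46.

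Lig1 is a gene whose make-up depended on the table. In the first table its coding share was 20.2% and 24.1%, with 50.3% and 54.3% in Lig1-207, a processed transcript of 2968 bases. In the second table the coding share was 85.8% and 90.4%, Lig1-207 held 1.28% in replicate 1 and was listed at 0 in replicate 2, and the coding form Lig1-201 held 41.3% and 33.8%. The first table listed Lig1-201 at 0 in both libraries. The tables assign the same reads to forms of similar length, and which form the cells made is not resolved by these estimates.

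Tyms, Rfc3 and Rfc5 were mixed. The coding share of Tyms was 32.9% and 32.1% in the first table, and 53.2% and 37.0% in the second. Its highest transcript in replicate 2 of the first table was Tyms-205, classed for nonsense-mediated decay, with 24.6%. In replicate 2 of the first table the highest transcripts of Rfc3 and Rfc5 were the retained intron forms Rfc3-207 (40.7%) and Rfc5-205 (49.0%), whereas in the other 3 estimates a coding form was the highest. The same transcript was the highest in both libraries for 41 genes in the first table and 44 in the second, and in all 4 estimates for 38. Fen1, Mcm4, Orc2, Gins3 and Gins4 had all their TPM in coding transcripts in all 4 estimates.

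For each gene the rounded counts of the libraries were set against each other in a two-sided exact binomial test. Benjamini-Hochberg adjustment ran over the 12437 genes whose counts summed to 50 or more. This test compares 2 libraries and covers counting error only. Of the 46 genes, 45 had a ratio above 0, replicate 2 over replicate 1, against 49.9% of all genes tested and 51.4% of the 8185 genes in the same range of summed counts (228 to 5515). By the adjusted p of at most 0.05, 32 were higher in replicate 2, where the background was 11.6% of all genes tested and 12.3% of the genes in that count range. None was lower, against 12.7% of all genes. Over all genes tested 1447 were higher and 1582 lower, a split that ERCC totals as offsets turned to 893 and 2930, with 25 of the 46 higher. None reached 2-fold, against 2.25% of all genes in either direction. The median log2 ratio was 0.32, with a range from -0.03 (Pold2) to 0.67 (Orc1), while the median over all genes tested was -0.00043.

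No member was called once the spread between these libraries over all genes was included. With the common dispersion of the same 2 libraries (a coefficient of variation of 11.6%), the exact test of edgeR called 0 of the 46 genes, and the background of genes called higher was 1.20%. At an unadjusted p of at most 0.05 that test had 5 of the 46 higher and 0 lower, where 3.24% of all genes tested were higher, and the lowest adjusted p was 0.676, for Rpa2. The 32 calls thus hold for counting error alone and not with this spread, which comes from the same libraries. The difference under test is part of that spread, so the 0 calls cannot decide whether the libraries differ in these genes. Of the deposited TPM bounds, whose level the file headers do not give, those of 25 genes did not overlap between the libraries, and all 25 were higher in replicate 2. Over all genes tested the bounds lay apart with replicate 2 higher for 6.05% and lower for 5.89%, and for 5.97% higher in the count range of the 46.

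**Figure D4:**
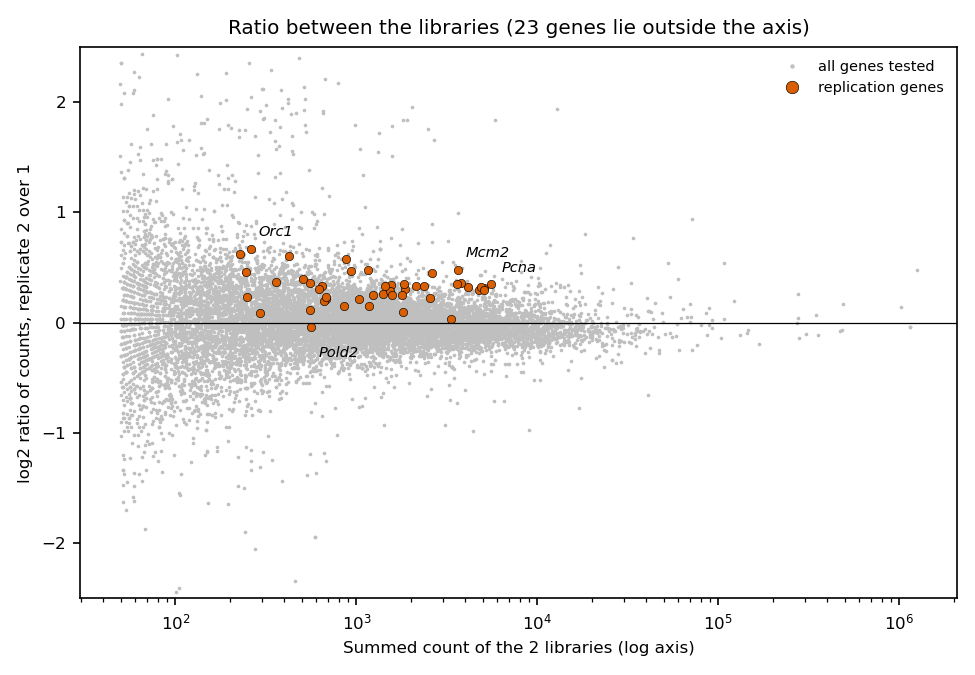
log2 ratio of counts, replicate 2 over replicate 1 (y axis), against the summed count of both libraries (x axis, log scale) for all 12437 genes tested (grey) and the 46 replication genes (orange); 23 genes lie outside the axis. The replication genes form a band above 0, except Pold2 at -0.03.

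Orc1, Rpa3 and Rfc4 had the largest ratios, and were the genes at or past 1.5-fold, which 3.05% of all genes tested passed in that direction. Orc1 had 102 reads in replicate 1 and 158 in replicate 2, a fold of 1.59 (95% interval 1.23 to 2.06, adjusted p = 0.00228 in the exact binomial test). Rpa3, with 91 and 137 reads, had a fold of 1.54 (1.18 to 2.04), and Rfc4, with 171 and 254 reads, a fold of 1.52 (1.25 to 1.86). Pcna, with the most reads (2454 and 3061), had a fold of 1.28 (1.21 to 1.35). The 3 largest folds rest on few reads, and their intervals overlap that of Pcna.

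By role, all 6 helicase genes were higher in replicate 2 at the adjusted p, with log2 ratios from 0.29 (Mcm6) to 0.48 (Mcm2). So were all 6 origin licensing genes (0.30 to 0.67), all 5 of the flap, ligase and RPA genes (0.23 to 0.62) and all 5 nucleotide supply genes (0.25 to 0.47). Of the clamp and loader genes Pcna, Rfc2 and Rfc4 passed, while Rfc5 had a log2 ratio of 0.15, Rfc3 0.12 (-0.060 by the second table) and Rfc1 0.03 (-0.048 with ERCC totals as offsets). Of the 9 polymerase and primase genes Pola1, Pold3 and Pole passed. Of the CMG genes Mcm10 and Gins4 passed, and of the chromatin group Chaf1a and Slbp did. With ERCC totals as offsets the calls of Orc2, Orc6, Gmnn, Mcm10, Gins4, Pold3 and Tyms were lost. With the counts of the second table those of Orc2, Gmnn, Rpa3 and Tyms were lost. The tables differed widely in the counts of Tyms, with 723 and 840 reads in the gene table and 1472 and 1516 in the second. Differences between the roles were not tested.

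For a few genes the TPM ratio and the count ratio parted. Orc2 had a TPM ratio of 1.92 with a count ratio of 1.29 (247 and 310 reads). Its long form Orc2-201, of 3561 bases, held 97.8% of its TPM in replicate 1 and 59.2% in replicate 2. The 370-base form Orc2-205 was listed at 0 in replicate 1 and held 23.1% in replicate 2, on 8.37 estimated reads. Pole2 had a TPM ratio of 1.72 against a count ratio of 1.38, and Mcm10 1.66 against 1.19. The coding share of Mcm10 was 52.1% in replicate 1 and 33.4% in replicate 2. The count ratio does not hold this length term.

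The rest of the pathway was counted in the same way. Of 56 further replication genes, all with 1 TPM or more in each library, 48 had a ratio above 0, 26 were higher in replicate 2 at the adjusted p and 1 was lower, with a median log2 ratio of 0.20. Of 30 further fork genes 10 were higher, among them Recql4 (2.36 and 3.62 TPM, log2 ratio 0.60), a helicase of replication start, and Chtf18 (10.7 and 13.3 TPM, 0.59), of an alternative clamp loader. Of 20 further nucleotide genes 11 were higher, among them Dtymk, thymidylate kinase (18.2 and 27.2 TPM, 0.54). The gene that was lower was Samhd1, which breaks down deoxynucleotides and had the highest level of the 56, at 264 and 243 TPM (log2 ratio -0.13). Of 6 further chromatin genes 5 were higher, with Nasp, Asf1a, Asf1b, Dnmt1 and Uhrf1 between 0.18 and 0.45.

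Marker lists of other cells and stages differed between the libraries too. Their calls are those of the exact binomial test, by which 11.6% of all genes tested were higher and 12.7% lower. All 12 mitosis genes had a ratio above 0, 8 of them higher at the adjusted p, with a median log2 ratio of 0.20 and a summed level of 471 and 548 TPM. A list of primary granule and promyelocyte genes held Mpo, Elane, Prtn3, Ctsg, Ms4a3, Prss57 and Nkg7. All 7 had a ratio above 0, and 6 of them, all but Nkg7, were higher. Their median was 0.36, with sums of 945 and 1223 TPM. The 8 genes of mature neutrophils were all lower in replicate 2, with a median of -0.25 and sums of 7013 and 6006 TPM. The 6 secondary granule genes, made in myelocytes, had a median of only 0.04, with sums of 18700 and 19392 TPM. Of them 4 were higher, Camp at a log2 ratio of 0.12 and Chil3, Ngp and Lcn2 at 0.05 to 0.03. With ERCC totals as offsets the median over all genes tested moved from -0.00043 to -0.08, more than the ratios of Chil3, Ngp and Lcn2. The median of the 46 genes was 0.32, and whether their shift goes with that of any of these lists was not tested.

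Of 12 erythroid genes 9 were higher in replicate 2 and 2 were lower, with a median log2 ratio of 1.60 and sums of 1272 and 1231 TPM. Globin genes held most of those sums, and the 2 lower genes were the globins Hbb-bs and Hba-a2 (log2 ratios -0.37 and -0.61). Hba-a1 (0.09) and Alas2 (0.009) changed little. Of the higher genes 7 were at least 2-fold higher, among them Gata1, an erythroid transcription factor, at 1.96 TPM in replicate 1 and 7.70 in replicate 2. All 8 B cell genes were lower (median -1.18, sums of 396 and 274 TPM), with Cd79a at 7.28 and 3.06 TPM. No T cell marker had enough reads to be tested (sums of 2.90 and 1.07 TPM, Cd3e with 4 reads and 0). Of the germinal centre markers 3 had enough reads to be tested, and none was called (median 0.09, sums of 39.6 and 39.9 TPM). Of 6 progenitor genes 2 were higher (median 0.13, sums of 41.8 and 52.4 TPM), and of 6 monocyte genes 5 were lower (median -0.13, sums of 2004 and 1797 TPM). The part of any of these cells in the levels or in the shift of the 46 genes was not tested.

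**Figure D5:**
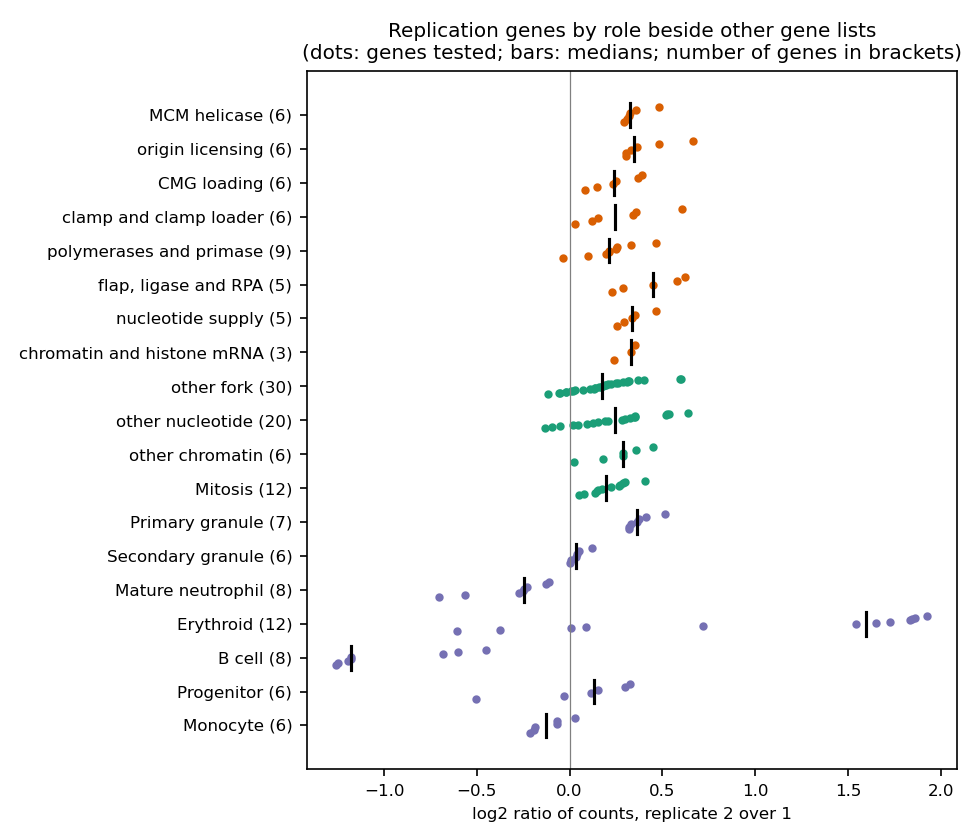
log2 ratio of counts, replicate 2 over replicate 1 (x axis), for each gene tested (dots) and the median (bars) of the 8 roles of the replication genes, of 3 lists of further replication genes, and of marker lists, with the number of genes in brackets. The replication roles lie at medians from 0.21 to 0.45, the mature neutrophil genes at -0.25 and the erythroid genes at 1.60.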

How the data were processed

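Total RNA was sequenced from 2 libraries of 1 group after reduction of ribosomal RNA with a kit that keeps strand, per the labels. The authors deposited a gene table per library with an expected count and a TPM, estimated from alignments to the mm10 transcriptome with annotation M21, per the file lists of the samples. A first deposited transcript table holds expected counts, TPM and the percent of a gene's TPM per transcript. A second deposited table, made from reads, holds estimated counts and TPM. Aligner and estimators, with their versions: not given in the sources used here.

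Symbols, classes and coordinates came from GENCODE M21. Counts were rounded for the exact test. Its offsets were the reads of genes other than ribosomal RNA genes (18060581 and 17609100), and log2 ratios had 0.5 added to each count. Counts were whole in both libraries for 42 of the 46 genes. Another annotated gene overlaps 12 of them on the same strand and 19 on the opposite strand. Folds have exact Clopper-Pearson 95% intervals. The exact test was tried on simulated counts that held counting error only. The interval was checked on a fixed pair of counts, and its coverage was not simulated.

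The members, the lists of further genes and markers, and the tests were chosen with earlier results of these data known. Genes were named by their place in a role (highest, lowest), a fold of at least 1.5, a non-coding main transcript or a difference between the tables; the rest were added to complete a role. Protein sequences were not analysed here. 1 marker symbol, Azu1, matched no gene. Alternatives covered offsets (TMM of edgeR 4.0.16, size factors of DESeq2 1.42.0, ERCC totals, coding totals), count minimums, thresholds, tables and the exact test of edgeR, in R 4.3.3. Other steps used scipy 1.17.1 and pandas 2.3.3 under Python 3.11.15.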

Additional observations from a re-analysis of the deposited data

How the results depend on the processing

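All 46 genes stayed at 1 TPM or more in each table, and 42 reached 5 TPM. Orders within roles changed in the second table: Gmnn passed Cdt1 in both libraries, and in replicate 1 Gins2 (8.18 TPM) lay below Gins1 (9.66) and Gins4 (10.6). Rescaling TPM to protein-coding genes put the mean of the library medians at 39.9 in place of 18.7, and leaving out a replicate gave 16.7 to 20.7. The median log2 ratio was 0.24 with ERCC totals as offsets and 0.34 with coding totals. With ERCC totals the ratio of Rfc1 was -0.048, and with the second table that of Rfc3 was -0.060, so both changed direction. TPM was higher in replicate 2 for 44 genes in the gene table and 42 in the second. By count and both TPM it was 41. The genes with a lower TPM in the second table were Gins1, Gins3, Rfc3 and Pold2.

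The count of genes higher in replicate 2 was 25 with ERCC totals, 29 with the second table, 31 with DESeq2 size factors and 34 with coding totals, where 7.18%, 10.2%, 10.7% and 13.2% of all genes tested were higher. It was 0 with the exact test of edgeR at the common dispersion. With ERCC totals the split over all genes tested moved from 1447 higher and 1582 lower to 893 and 2930, and the median over all genes to -0.08. At thresholds of 1.5-fold and of no fold, 3 and 32 genes were called in place of 0 at 2-fold. The count of genes with a coding share under 50% in both libraries was 5 in the first table (11.1% against 14.6% of all coding genes) and 3 in the second (6.67% against 17.8%), and 7 to 8 when a replicate was left out. The cause of these moves was not tested, apart from the edgeR test, which adds the library spread, and the thresholds.

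No paired analysis was possible because the libraries form 1 group. Protein motif searches were not run. With 1 group of 2 libraries no spread within a library's condition can be set apart from a difference between libraries, and genes with about 100 reads have wide intervals.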
